A study of Mus musculus with 14 samples.

Results

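Lung tumor nodules of mice given mobocertinib together with T-DM1 were compared with nodules of mice given vehicle. The comparison used 5 of the 14 RNA-seq libraries of the series, 3 from the combination group and 2 from the vehicle group, chosen by the treatment each label names. All 14 libraries came from C57BL/6 mice with the genotype HER2 Exon20YVMA, so the controls carry the mutant allele as well, and treatment was long-term. The other 9 libraries, 3 each from mobocertinib, T-DM1 and mobocertinib-resistant nodules, served to share the estimate of the spread, and the first 2 of those groups were also set against the combination directly. The labels give no dose, duration, age, sex, promoter or Cre driver, and do not say whether the libraries are from different animals, so p-values measure the spread between these samples, which may be technical. Total RNA of snap-frozen nodules was sequenced, to 22652221, 23636046 and 24043238 counts in the combination libraries and 24620813 and 24863818 in the vehicle libraries. In all 5, Ddx3y of the Y chromosome was present, at 20.5, 23.9 and 25.6 CPM (counts scaled to library size with TMM factors) in combination nodules and 21.8 and 21.5 CPM in vehicle nodules, and Xist, which marks the inactive X chromosome, was at most 0.479 CPM.

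HER2, the product of Erbb2, is a receptor tyrosine kinase that pairs with EGFR or ERBB3 and drives the RAS-ERK and PI3K-AKT pathways. A YVMA insertion in exon 20 makes its kinase active without a ligand. Mobocertinib is a tyrosine kinase inhibitor made for exon 20 insertions of EGFR and HER2, and T-DM1 is the HER2 antibody trastuzumab linked to DM1, a maytansinoid that blocks microtubule assembly once the conjugate is broken down in lysosomes. ERK activity switches on its own inhibitors, AKT holds FOXO transcription factors out of the nucleus, and both pathways drive entry into the cell cycle.

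In combination nodules the ERK phosphatases Dusp6 and Dusp5, the ETS factor Etv4 and a group of mitotic genes were lower than in vehicle nodules. The neuregulin Nrg1, Egfr and the FOXO target Bcl6 were higher. Pro-apoptotic genes went both ways, with Bcl2l11 higher and Bad and Bok lower. Markers of alveolar macrophages were also lower, and markers of endothelium and several of club cells higher. Of 17933 genes tested with edgeR, 6277 (35.0%) had a Benjamini-Hochberg adjusted p below 0.05, the threshold for a call used throughout. Of these, 3165 (17.6%) were higher and 3112 (17.4%) lower in the combination. The 3 combination and 2 vehicle libraries did not overlap at 11322 genes (63.1%), of which all combination libraries lay above at 5967 (33.3%) and below at 5355 (29.9%). Without vehicle library 2 the number called fell to 3630, of which 1921 were higher and 1709 lower.

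Transcript length set the vehicle libraries apart. The share of counts on mRNAs under 1 kb was 9.30%, 12.6% and 12.4% in combination libraries, against 31.4% and 37.0% in vehicle libraries. Those over 5 kb took 16.1%, 13.0% and 15.6% in combination libraries, against 5.52% and 4.08% in vehicle libraries. The groups did not overlap in either share, and the other 9 libraries lay on the side of the combination, at 8.20% to 14.4% and 11.7% to 19%. Ribosomal protein genes, 96 in number, took 3.83%, 6.12% and 6.88% of counts in the combination and 20.9% and 21.9% in vehicle. Vehicle library 2 stood furthest out: it had counts for 17279 genes, against 20241 in vehicle library 1 and 21430 to 21712 in combination libraries, and 5.32% of its counts fell on the ribosomal RNA gene CT010467.1, against 1.88% in vehicle library 1 and at most 0.478% in the combination.

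This skew ran through the calls. Of 856 mRNAs under 1 kb, 1.52% were called higher and 60.2% lower in the combination, with a median log2 fold change of -1.79. Of 3090 mRNAs over 5 kb, 43.5% were called higher and 2.78% lower, with a median of 1.08. A second fit therefore corrected each library for transcript length and GC content, which sets the average change at each length to about 0 and so also removes any true change that follows length. In it, 3935 of 15042 protein-coding genes (26.2%) were called, 1713 higher (11.4%) and 2222 lower (14.8%). The 2 fits called 2711 genes (18.0%) in the same direction, 1340 higher (8.91%) and 1371 lower (9.11%), and 24 in opposite directions. Counts of called list members below stand against these shares of all genes in the same fit. The median log2 fold change over all genes was 0.08 as counted and -0.03 length-corrected. What gave rise to the skew was not tested. Directions also depend on the scaling: in TPM without TMM scaling (pseudocount 1), the median over all genes was 1.18. There 8950 of 15774 genes were called higher and 533 lower, and list counts in unscaled TPM below stand against these. Genes called lower as counted had the opposite sign there, among them Bax (0.58), Bst2 (0.57), Cd274 (0.23), Cdk4 (0.12), Dusp5 (0.01), H2-DMa (0.02), Mcl1 (1.02) and Psmb10 (0.49). So did Mki67 (0.27), Spred1 (0.53), Spry4 (0.49) and Trib1 (1.17), which were called lower in the length-corrected fit.

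**Figure D1:**
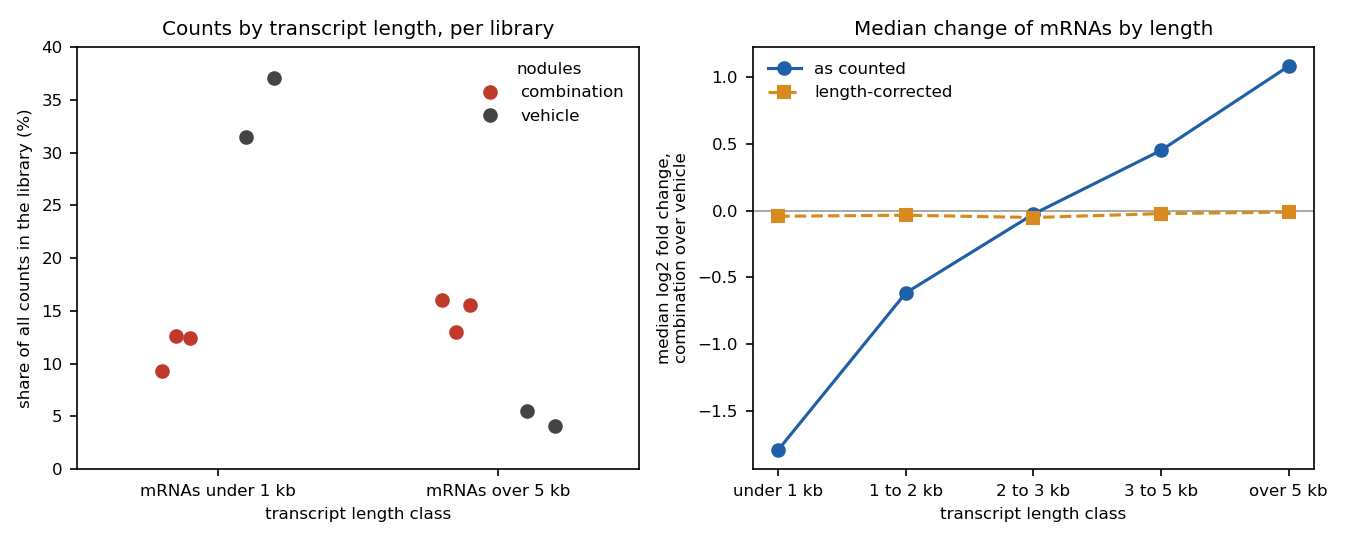
Left, the share of a library's counts (percent) on mRNAs under 1 kb and over 5 kb, 1 point per library, for 3 combination and 2 vehicle nodules; the combination libraries lie at 9.30% to 12.6% and 13.0% to 16.1%, the vehicle libraries at 31.4% to 37.0% and 4.08% to 5.52%. Right, the median log2 fold change of combination over vehicle in 5 classes of transcript length, which climbs from -1.79 under 1 kb to 1.08 over 5 kb as counted and lies near 0 in every class after the length correction.

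Among 22 genes of ERK feedback and output, 5 were called lower and 2 higher as counted (17.4% and 17.6% of all genes). The same 5 were lower in both fits (9.11% of all genes). Dusp6, a phosphatase that inactivates ERK (mm10 chr10:99263231-99267489, plus strand), stood at 54.6, 48.2 and 41.5 CPM in combination nodules, against 217 and 232 CPM in vehicle nodules. The groups were far apart and each was tight, with a log2 fold change of -2.22 ± 0.27 (SE; edgeR adjusted p = 0.00021) as counted and -2.41 length-corrected. Dusp5, a nuclear ERK phosphatase, stood at 10.7, 9.52 and 7.59 CPM in the combination and 37.9 and 24.8 CPM in vehicle, a log2 fold change of -1.76 ± 0.32 (SE; edgeR adjusted p = 0.0014). Etv4, an ETS transcription factor induced by ERK (mm10 chr11:101769742-101785371, minus strand), had 4.99, 2.16 and 4.68 CPM in the combination and 56.4 and 41.7 CPM in vehicle, a log2 fold change of -3.64 ± 0.69 (SE; edgeR adjusted p = 0.0020). These 3 genes were called in the same direction under every scaled alternative, which here and later means each of the 22 alternatives with scaled libraries in which a gene had a value. In unscaled TPM none of the 3 was called, with log2 fold changes of -0.42 for Dusp6, 0.01 for Dusp5 and -1.37 for Etv4. The ERK feedback and output list had 11 of 22 members called higher there and 0 lower, with a median of 1.21. Over all genes, 8950 of 15774 were called higher and the median was 1.18, so the list lay near the whole.

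Etv5, the close relative of Etv4 that is also a marker of alveolar type 2 cells, had 23.5, 17.6 and 25.9 CPM in the combination and 118 and 110 CPM in vehicle. Its log2 fold change of -2.35 ± 0.85 (SE) passed narrowly (edgeR adjusted p = 0.048), and it no longer passed when any 1 of the 5 libraries was left out (edgeR adjusted p 0.092 to 0.14). Phlda1, a growth factor-induced gene, was lower by a log2 fold change of -2.12 (edgeR adjusted p = 0.029), and lost that call when any library but combination library 1 was left out (edgeR adjusted p 0.075 to 0.13). The Sprouty and SPRED proteins, which restrain RAS-ERK signaling downstream of receptors, did not move as a block. Spry4 and Spred1 were called lower after length correction alone (log2 fold changes -1.76 and -1.81), Spry2 stood at 20.2, 15.3 and 24.5 CPM in the combination against 42.3 and 36.2 CPM in vehicle and passed in neither fit, and Spred2 was called higher as counted (log2 fold change 1.02) but not length-corrected (0.24), nor as counted without combination library 1 or vehicle library 2 (edgeR adjusted p 0.13 and 0.12). Egr1, an immediate early gene, was higher as counted, at 58.9, 84.3 and 27.6 CPM in the combination against 4.62 and 16.5 CPM in vehicle, and its length-corrected change missed the threshold (edgeR adjusted p = 0.068). Ccnd1, cyclin D1, had 410, 217 and 413 CPM in the combination and 406 and 218 CPM in vehicle, so the groups overlapped. Myc overlapped too, at 26.6, 16.1 and 20.4 CPM in the combination and 25.3 and 33.8 CPM in vehicle. The list's median log2 fold change was -0.40 as counted and -0.47 length-corrected. Without combination library 2, combination library 3 or vehicle library 1, 3 members were called lower in place of 5, and the length-corrected count of 8 became 5 without any library but combination library 3.

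Several genes of the ERBB family were higher in the combination. Of 16 measured receptors, ligands and regulators, 8 were called higher and 1 lower as counted (17.6% and 17.4% of all genes). In the length-corrected fit 5 were called higher and 0 lower (11.4% and 14.8% of all). Nrg1, which encodes neuregulin 1, the ligand of ERBB3 and ERBB4, had 16.3, 15.3 and 13.0 CPM in combination nodules and 0.240 and 0.297 CPM in vehicle nodules. Its log2 fold change was 5.77 ± 0.90 (SE; edgeR adjusted p = 0.00063) and 5.17 after correction, and the call held under every scaled alternative. Egfr, the receptor for EGF-like ligands, had 28.3, 15.1 and 31.9 CPM in the combination and 1.08 and 1.93 CPM in vehicle, a log2 fold change of 4.07 ± 0.73 (SE; edgeR adjusted p = 0.0015) and 2.69 length-corrected. The combination libraries lay above both vehicle libraries for each of these genes.

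Lrig1, which promotes degradation of ERBB receptors, had 88.9, 83.0 and 105 CPM in the combination and 13.4 and 13.1 CPM in vehicle (log2 fold change 2.80 ± 0.43 SE, edgeR adjusted p = 0.00055). Its relative Lrig3 was higher by 3.36 on the log2 scale, and both were called in both fits. For the receptors HER2 and HER3 the call depended on the correction. Erbb3 had 265, 190 and 299 CPM in the combination and 57.2 and 33.0 CPM in vehicle, a log2 fold change of 2.48 as counted and 1.36 length-corrected (edgeR adjusted p = 0.054). Erbb2 had 651, 445 and 306 CPM in the combination and 148 and 142 CPM in vehicle, with log2 fold changes of 1.69 (edgeR adjusted p = 0.017) and 0.66 (edgeR adjusted p = 0.32). Without combination library 1, vehicle library 1 or vehicle library 2 the Erbb2 call was lost as counted too (edgeR adjusted p 0.060 to 0.081, log2 fold change 1.37 to 1.79). The labels do not say whether the mutant allele is of human or mouse sequence, and the count table has 0 entries for the human symbol ERBB2, so these are values of the mouse symbol. Of the EGFR ligands, Tgfa was called higher as counted (1.83; edgeR adjusted p = 0.081 without vehicle library 2), while Areg, Ereg, Btc and Hbegf passed in neither fit. Nrg4, another neuregulin, was the 1 member called lower as counted (log2 fold change -2.26), and was called in none of the fits that left out 1 library. As counted, 5 members were called higher without vehicle library 2, when the median log2 fold change of the ERBB receptors, ligands and regulators was 0 in place of 0.77, and length-corrected 3 were without combination library 1 or vehicle library 1.

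FOXO transcription factors and genes they are known to induce stood higher as counted, with 10 of 16 members called higher and 0 lower. Their median log2 fold change was 1.72 as counted and 0.55 length-corrected, when 5 were called higher and 1 lower. Bcl6, a transcriptional repressor, had 63.7, 53.7 and 49.5 CPM in the combination and 13.4 and 7.65 CPM in vehicle, a log2 fold change of 2.40 ± 0.31 (SE; edgeR adjusted p = 0.00025) and 1.93 after correction, and it was called under every scaled alternative. Pdk4, which inhibits pyruvate dehydrogenase, Klf15 and Foxo4 were also called higher in both fits, at 2.73, 2.21 and 1.66 as counted, though Klf15 was not called without combination library 3 or either vehicle library (edgeR adjusted p 0.052 to 0.11). The long transcripts of Foxo1 and Foxo3 behaved differently: Foxo1 was higher by 1.55 as counted (edgeR adjusted p = 0.00073) and by 0.18 length-corrected (edgeR adjusted p = 0.50), and Foxo3 by 2.0 and 0.66. Insr, the insulin receptor, had 63.0, 48.7 and 55.3 CPM in the combination and 14 and 13.2 CPM in vehicle, and remained called after correction with a log2 fold change of 0.63 in place of 2.03. Trib1 was the member called lower after correction, by -1.28. With 1 library left out at a time, 2 to 3 members were called higher in the length-corrected fit, the fewest without vehicle library 1. Among 20 other receptor tyrosine kinases and ligands, 6 were called higher and 0 lower as counted (17.6% and 17.4% of all genes). Length-corrected, 3 were called higher and 2 lower (11.4% and 14.8% of all), and the medians were 0.82 as counted and -0.04 length-corrected. Igf1r, the IGF1 receptor (115, 119 and 107 CPM in the combination, 16.9 and 8.69 CPM in vehicle), and Fgfr3 were called higher in both fits. Without vehicle library 2, 2 members of that list were called as counted, and the 3 called higher length-corrected became 0 or 1 when any library was left out.

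Genes of mitosis and G2/M were lower in combination nodules, and after the length correction more of them passed. None of 25 members was called higher, 10 were called lower as counted and 13 length-corrected, with 8 lower in both, and the median log2 fold change was -1.61 as counted and -1.84 length-corrected. Cdc20, the activator of the anaphase-promoting complex, had 4.42, 2.91 and 3.72 CPM in the combination and 24.2 and 23.3 CPM in vehicle, a log2 fold change of -2.69 ± 0.37 (SE; edgeR adjusted p = 0.00032). Ube2c, the ubiquitin-conjugating enzyme of that complex, had 3.73, 2.79 and 2.98 CPM in the combination and 18 and 29.4 CPM in vehicle (-2.90 ± 0.57 SE, edgeR adjusted p = 0.0025). Cdk1, the kinase that drives mitotic entry, had 5.48, 4.53 and 5.38 CPM in the combination and 34.9 and 25.4 CPM in vehicle (-2.55 ± 0.53 SE, edgeR adjusted p = 0.0033). Cenpa, the histone H3 variant of centromeres, had 3.98, 7.36 and 3.42 CPM in the combination and 36.6 and 25.2 CPM in vehicle (-2.65 ± 0.49 SE, edgeR adjusted p = 0.0016). All 4 were called under every scaled alternative. No combination library reached a vehicle library at 18 of the 25 genes, as at 29.9% of all genes tested. In unscaled TPM the direction was lost, with 1 of 24 Mitosis and G2/M members called higher, 0 lower and a median of 0.12, against 1.18 for all genes. In such bulk samples, fewer dividing cells and less of these RNAs per cell cannot be told apart.

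Mki67, the gene of the Ki-67 proliferation antigen, has a transcript of 10061 bases and passed after length correction alone. It had 11.1, 5.31 and 6.33 CPM in the combination and 13.8 and 18.4 CPM in vehicle, a log2 fold change of -1.09 as counted (edgeR adjusted p = 0.20) and -2.58 length-corrected (edgeR adjusted p = 0.010). Top2a, topoisomerase II alpha, passed in neither fit, and Pttg1, securin, overlapped between the groups. Without combination library 2 the number of mitotic genes called lower as counted was 5, and without combination library 3 it was 6.

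Promoters of mitotic genes are known to carry CCAAT boxes, bound by NF-Y, and a cell cycle homology region (CHR) that DREAM and MuvB complexes read. The 4 promoters that follow belong to the 4 genes given with values above, from 250 bases before to 50 after the RefSeq start in GRCm38.p6. Capitals mark CCAAT and the CHR letters TTTGAA or TTCGAA on either strand, where matches may overlap.
Cdc20 (chr4:118437294-118437593, minus strand): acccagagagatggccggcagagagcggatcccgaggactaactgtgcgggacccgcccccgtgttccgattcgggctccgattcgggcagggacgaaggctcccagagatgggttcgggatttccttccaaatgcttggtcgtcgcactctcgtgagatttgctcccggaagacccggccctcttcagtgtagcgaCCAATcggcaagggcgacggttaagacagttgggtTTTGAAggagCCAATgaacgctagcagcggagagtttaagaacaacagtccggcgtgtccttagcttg
Cdk1 (chr10:69352863-69353162, minus strand): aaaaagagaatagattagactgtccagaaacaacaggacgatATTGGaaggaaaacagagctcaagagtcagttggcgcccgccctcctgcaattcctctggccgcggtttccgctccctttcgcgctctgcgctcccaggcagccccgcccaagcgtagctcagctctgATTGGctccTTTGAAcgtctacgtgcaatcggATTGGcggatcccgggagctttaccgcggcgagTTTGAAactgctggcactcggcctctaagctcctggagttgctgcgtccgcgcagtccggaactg
Ube2c (chr2:164769679-164769978, plus strand): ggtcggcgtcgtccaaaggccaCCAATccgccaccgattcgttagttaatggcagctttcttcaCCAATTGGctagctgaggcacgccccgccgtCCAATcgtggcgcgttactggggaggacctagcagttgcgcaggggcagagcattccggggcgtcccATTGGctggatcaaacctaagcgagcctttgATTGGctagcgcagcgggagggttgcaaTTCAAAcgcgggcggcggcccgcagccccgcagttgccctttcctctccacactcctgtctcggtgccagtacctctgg
Cenpa (chr5:30666636-30666935, plus strand): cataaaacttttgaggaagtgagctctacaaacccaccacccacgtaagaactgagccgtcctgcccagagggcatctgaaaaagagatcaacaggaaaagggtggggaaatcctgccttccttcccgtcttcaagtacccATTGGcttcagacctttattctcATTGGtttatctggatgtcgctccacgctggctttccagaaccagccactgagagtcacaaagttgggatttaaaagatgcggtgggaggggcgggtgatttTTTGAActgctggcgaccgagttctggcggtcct

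Each of the 4 windows held at least 1 CHR match and 2 CCAAT matches. Of the 25 mitotic genes, 20 had a promoter in the RefSeq table, and 15 of those 20 (75%) held both motifs, against 7.57% of all 27025 promoters. CCAAT alone was in 17 of the 20 (85%) and in 37.8% of all promoters, and a CHR in 15 (75%) and in 19.4%. CCAAT was also in 14 of 20 promoters (70%) of the DNA replication and G1/S list and in 8 of 12 (66.7%) of the FOXO list. Promoters of DNA replication and G1/S genes held a CHR in 2 of 20 (10%) and the E2F letters GGCGGGAA in 4 of 20 (20%), against 2.26% of all promoters. The FOXO letters GTAAACA were in 1 of 12 promoters of the FOXO list and in 3.58% of all. These matches describe the letters of these windows and are no evidence of binding in the nodules.

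DNA replication and G1/S genes were lower as well, with 11 of 26 called lower and 0 higher as counted, 14 lower and 0 higher length-corrected, and 8 lower in both. The median log2 fold change was -0.90 as counted and -1.19 length-corrected. In unscaled TPM the list median was 0.53, against 1.18 for all genes, with 7 members called higher and 0 lower. Rrm2, the regulated subunit of ribonucleotide reductase, had 4.22, 3.15 and 3.90 CPM in the combination and 17.8 and 29.8 CPM in vehicle, a log2 fold change of -2.66 ± 0.54 (SE; edgeR adjusted p = 0.0028). Ccne1, cyclin E1, had 1.87, 2.40 and 1.07 CPM in the combination and 10.4 and 16.4 CPM in vehicle (-2.91 ± 0.60 SE, edgeR adjusted p = 0.0032). Tk1, thymidine kinase 1, was lower by -2.96 on the log2 scale. The combination libraries lay below both vehicle libraries at 17 of the 26 genes, as at 29.9% of all genes tested. With 1 library left out at a time, 4 to 7 members were called lower as counted, the fewest without combination library 3, and the length-corrected count of 14 became 9 without combination library 1 or 2 and 6 without vehicle library 2. Among 11 genes of D cyclins, their kinases and CDK inhibitors, the kinase Cdk4 was called lower in both fits. Cdk4 had 116, 130 and 128 CPM in the combination and 310 and 312 CPM in vehicle, and was not called in unscaled TPM (0.12). The kinase Cdk6 was called higher as counted (log2 fold change 1.08, edgeR adjusted p = 0.042) but not length-corrected (-0.36). The CDK inhibitor Cdkn1c was called higher in both fits, though not without combination library 2 or either vehicle library (edgeR adjusted p 0.065 to 0.11). The p21 gene Cdkn1a had 279, 327 and 258 CPM in the combination and 243 and 268 CPM in vehicle, and the groups overlapped.

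The combination was then set against each drug alone, in contrasts between groups other than vehicle, although the vehicle libraries enter the shared estimate of the spread. Against mobocertinib, edgeR called 0 of 17933 genes (0.00%), with 262 (1.46%; 111 or 0.619% higher, 151 or 0.842% lower) at an unadjusted p below 0.05, and DESeq2 called 1. Against T-DM1, edgeR called 0 genes (0.00%), with 915 (5.10%) at an unadjusted p below 0.05, of which 294 (1.64%) were higher and 621 (3.46%) lower in the combination, and DESeq2 called 75, 8 higher and 67 lower. Unlike the combination libraries, T-DM1 libraries 1 and 2 had Xist, at 41.8 and 20.6 CPM, with Ddx3y at 2.54 and 6.25 CPM; the part of this in the T-DM1 comparison was not tested. The mitotic genes are the clearest case. Their summed level was 111, 83.2 and 82.8 CPM in combination nodules, 47.3, 82.7 and 38.8 CPM in mobocertinib nodules, 366, 220 and 209 CPM in T-DM1 nodules and 300.5 and 269 CPM in vehicle nodules. Against T-DM1, 22 of the 25 members had an unadjusted p below 0.05, all lower in the combination, their median log2 fold change was -1.74 (all genes, -0.04), and DESeq2 called 7 of them. Against mobocertinib, 1 of 25 had an unadjusted p below 0.05 and the median was 0.80 (all genes, -0.01). There 0 of the 25 log2 fold changes lay below 0, so every member leaned higher in the combination. No member passed the adjusted threshold of edgeR in either comparison.

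Cdc20 illustrates this, at 2.29, 3.76 and 1.88 CPM in mobocertinib nodules and 18.2, 17.3 and 14.8 CPM in T-DM1 nodules beside its combination values above. Its log2 fold change in the combination was 0.48 ± 0.33 against mobocertinib (SE; edgeR adjusted p = 1.0) and -2.19 ± 0.34 against T-DM1 (SE; edgeR adjusted p = 0.23). Dusp6 had 34.3, 34.1 and 47.1 CPM in mobocertinib nodules and 180, 141 and 162 CPM in T-DM1 nodules, and its log2 fold change in the combination was 0.32 ± 0.25 against mobocertinib (SE) and -1.74 ± 0.25 against T-DM1 (SE; edgeR adjusted p = 0.20). For both genes the combination libraries lay below all 3 T-DM1 libraries and overlapped the mobocertinib libraries. Of the 22 ERK genes, 9 had an unadjusted p below 0.05 against T-DM1, all lower in the combination, and DESeq2 called 4 (Dusp4, Dusp5, Dusp6 and Spry4). Against mobocertinib, 3 of the 22 had an unadjusted p below 0.05, all higher in the combination. The median of the ERK list was 0.49 there, and 3 of the 22 log2 fold changes lay below 0. Bcl2l11 and Foxo4 also stood higher in the combination than in each T-DM1 library (log2 fold changes 0.91 and 0.86, unadjusted p = 0.0044 and 0.0039), without passing the adjusted threshold of edgeR. Other genes that rose against vehicle were also high with either drug alone. In combination, mobocertinib and T-DM1 nodules Nrg1 averaged 14.9, 9.91 and 12.9 CPM, and Egfr 25.1, 13.7 and 26.1 CPM. Lrig1 averaged 92.4, 68.7 and 62.9 CPM, Erbb3 251, 257 and 173 CPM, and Abcc1 77.7, 66.7 and 55.5 CPM. These means all lay above both vehicle libraries.

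**Figure D2:**
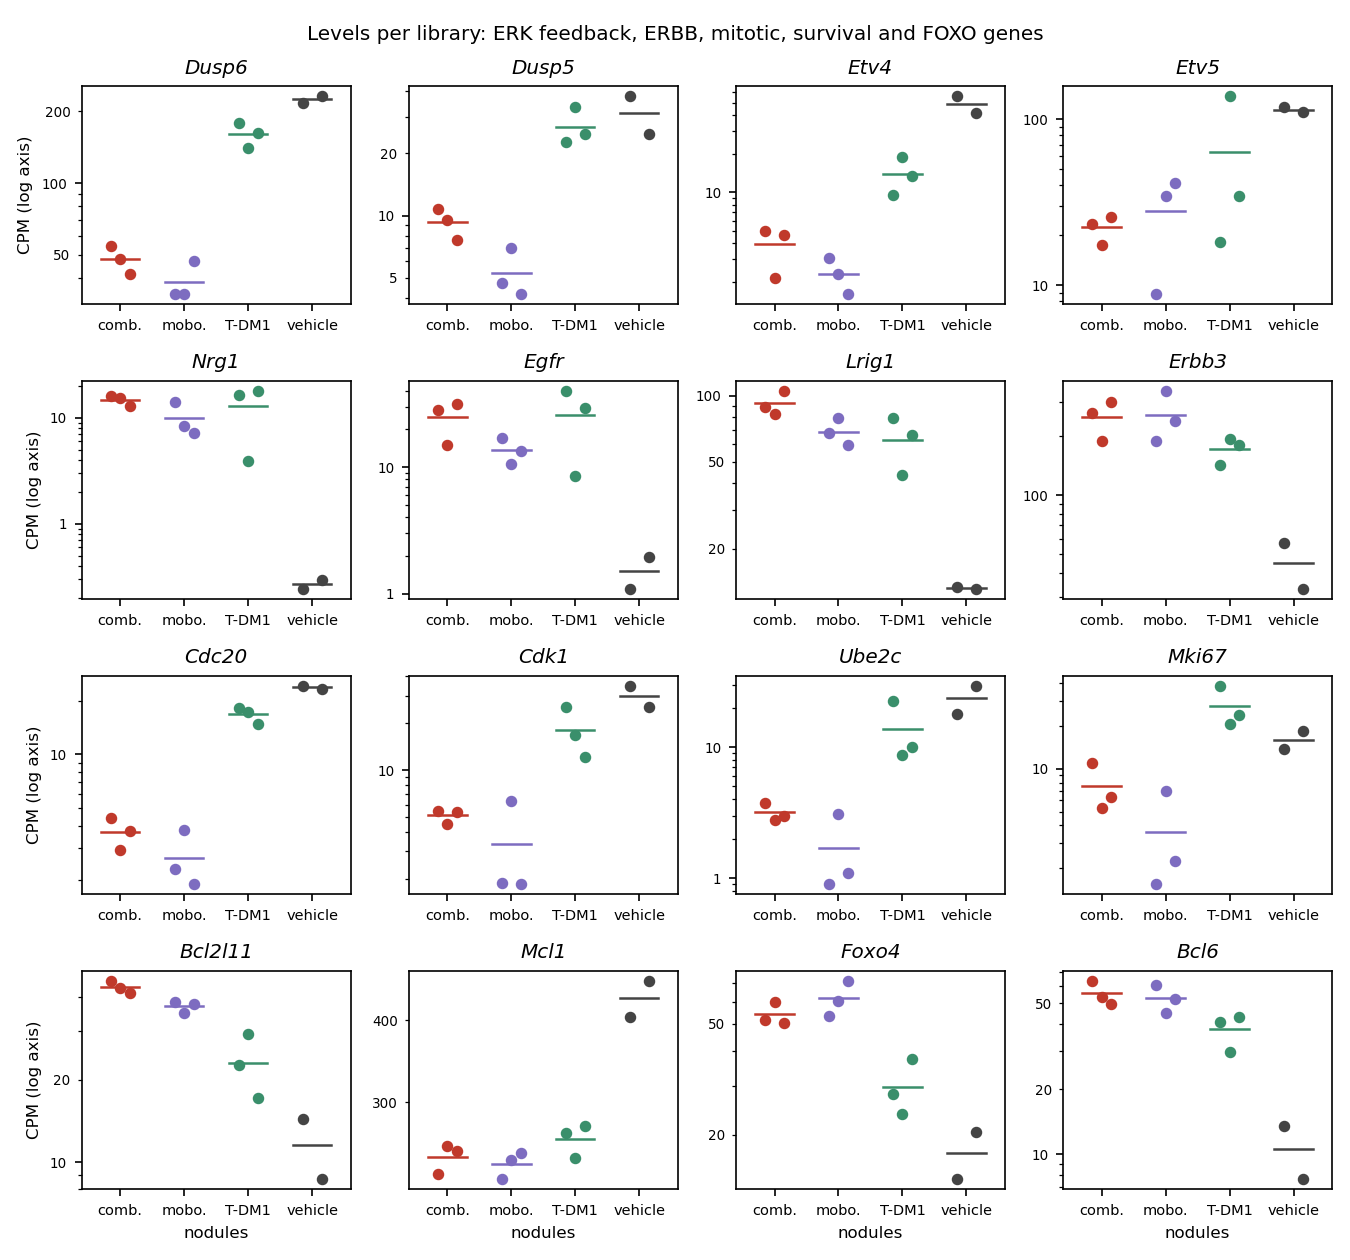
TMM-normalized CPM (log axis) of 16 genes, 1 point per library, with the group mean as a bar, in combination, mobocertinib, T-DM1 and vehicle nodules from left to right (n = 3, 3, 3 and 2). Dusp6 lies at 41.5 to 54.6 CPM in the combination and 217 to 232 in vehicle, Cdc20 at 2.91 to 4.42 in the combination and 23.3 to 24.2 in vehicle, and Nrg1 at 13.0 to 16.3 in the combination, 3.96 to 18.1 in T-DM1 and 0.240 to 0.297 in vehicle nodules.

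Of 16 BCL2 family regulators of apoptosis, 4 were called higher and 5 lower as counted (17.6% and 17.4% of all genes), and 2 higher and 4 lower length-corrected (11.4% and 14.8% of all). Bcl2l11, which encodes the BH3-only killer protein BIM, had 45.8, 43.2 and 41.4 CPM in combination nodules and 14.4 and 8.69 CPM in vehicle nodules, a log2 fold change of 1.91 ± 0.32 (SE; edgeR adjusted p = 0.00093) and 1.10 length-corrected. Pmaip1, which encodes the BH3-only protein NOXA, was higher by 1.39 and 1.54 in the 2 fits. The pro-survival Mcl1 was lower, at 234, 257 and 253 CPM in the combination and 405 and 460 CPM in vehicle (log2 fold change -0.80 ± 0.21 SE, edgeR adjusted p = 0.012; -0.58 and 0.13 without vehicle library 2), but higher in unscaled TPM, by 1.02. Lower in both fits, too, were the pro-apoptotic Bad (45.6, 55.1 and 49.6 CPM in the combination, 296 and 248 CPM in vehicle) and Bok (9.25, 9.01 and 9.87 CPM in the combination, 67.8 and 86.8 CPM in vehicle), although 20% of Bad's exonic sequence is shared with other genes. The pro-survival Bcl2a1b was lower by -4.43, but 49% of its exonic sequence is shared with other annotated genes, so its counts are uncertain. Bax, called lower as counted (-1.38; edgeR adjusted p = 0.076 without vehicle library 2), had a length-corrected change of 0.03. Leaving out vehicle library 2, 2 members of the family were called higher and 3 lower as counted. Of 18 p53 targets, 3 were called higher and 1 lower as counted, and Pmaip1 and Trp53inp1 were higher in both fits; the Pmaip1 call was lost without combination library 2 or 3 or vehicle library 1 (edgeR adjusted p 0.062 to 0.18), the Trp53inp1 call without vehicle library 2 (edgeR adjusted p = 0.11), and 1 p53 target was then called higher without combination library 2 or 3 or vehicle library 2.

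Genes that bear on handling of the antibody conjugate were examined next. Of 26 lysosome and vacuolar ATPase genes, 10 were called lower and 0 higher as counted (17.4% and 17.6% of all genes). In both fits 7 were lower (9.11% of all). In unscaled TPM 15 of the 26 were called higher and 1 lower, beside 8950 higher and 533 lower of all 15774 genes. Their median there was 1.02, against 1.18 for all genes. Atp6v0b, a subunit of the proton pump, had 156, 262 and 260 CPM in the combination and 1114 and 1747 CPM in vehicle (log2 fold change -2.66 ± 0.35 SE, edgeR adjusted p = 0.00026; -1.45 length-corrected). The protease gene Ctsd had 1844, 1719 and 1737 CPM in the combination and 4125 and 15769 CPM in vehicle, so its size rests on vehicle library 2, and without that library the change was -1.09 (edgeR adjusted p = 0.13). In all, 2 lysosomal members were called lower without vehicle library 2 as counted and 1 length-corrected. Alveolar macrophage markers, which moved the same way, are given with the cell type lists, and their part in the lysosomal change was not tested. Slc46a3, known in human cells to export DM1 catabolites from lysosomes, had 37.3, 52.9 and 20.0 CPM in the combination and 18.7 and 22.8 CPM in vehicle, and the groups overlapped. Among 10 ABC efflux transporters measured, 4 were called higher and 0 lower. Abcc1, the multidrug resistance protein MRP1, had 85.6, 62.4 and 85.0 CPM in the combination and 5.22 and 2.23 CPM in vehicle, a log2 fold change of 4.37 ± 0.54 (SE; edgeR adjusted p = 0.00021) and 3.14 length-corrected, called under every scaled alternative, and it was the 1 transporter called without vehicle library 2. Of 14 tubulin genes, the target family of DM1, 3 were called higher and 2 lower as counted (17.6% and 17.4% of all genes). Tubb4b was higher in both fits (538, 588 and 479 CPM in the combination, 262 and 268 CPM in vehicle), with no call as counted when combination library 1 or 2 or either vehicle library was left out (edgeR adjusted p 0.069 to 0.11), and Tubb5 overlapped at 384, 365 and 445 CPM in the combination and 327 and 410 CPM in vehicle. With 1 library left out, 1 or 2 tubulin genes were called higher as counted.

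Growth and energy genes were dominated by short transcripts. All 36 cytosolic ribosomal protein genes were called lower as counted and 25 length-corrected, with medians of -2.83 and -1.17. Rpl13 had 499, 652 and 650 CPM in the combination and 3399 and 4286 CPM in vehicle. All 12 noncoding hosts of small nucleolar RNAs, such as Gas5 (66.7, 112 and 109 CPM in the combination, 622 and 414 CPM in vehicle), were called lower; the length-corrected fit holds no noncoding genes. Of 26 nuclear genes of oxidative phosphorylation, 18 were called lower and 1 higher as counted, with a median of -2.07, and 5 lower and 2 higher length-corrected, with a median of -0.11 (3 lower without combination library 1 or vehicle library 2). Within the same pathway the longer transcript of Sdha, a catalytic subunit of complex II, was called higher in both fits (204, 184 and 194 CPM in the combination, 90.8 and 95.6 CPM in vehicle). The median transcript of these lists is 869 bases for the ribosomal proteins, 724 for the snoRNA hosts and 1004 for oxidative phosphorylation, and the part of the length skew in their change cannot be told apart from the treatment in the counts as given.

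**Figure D3:**
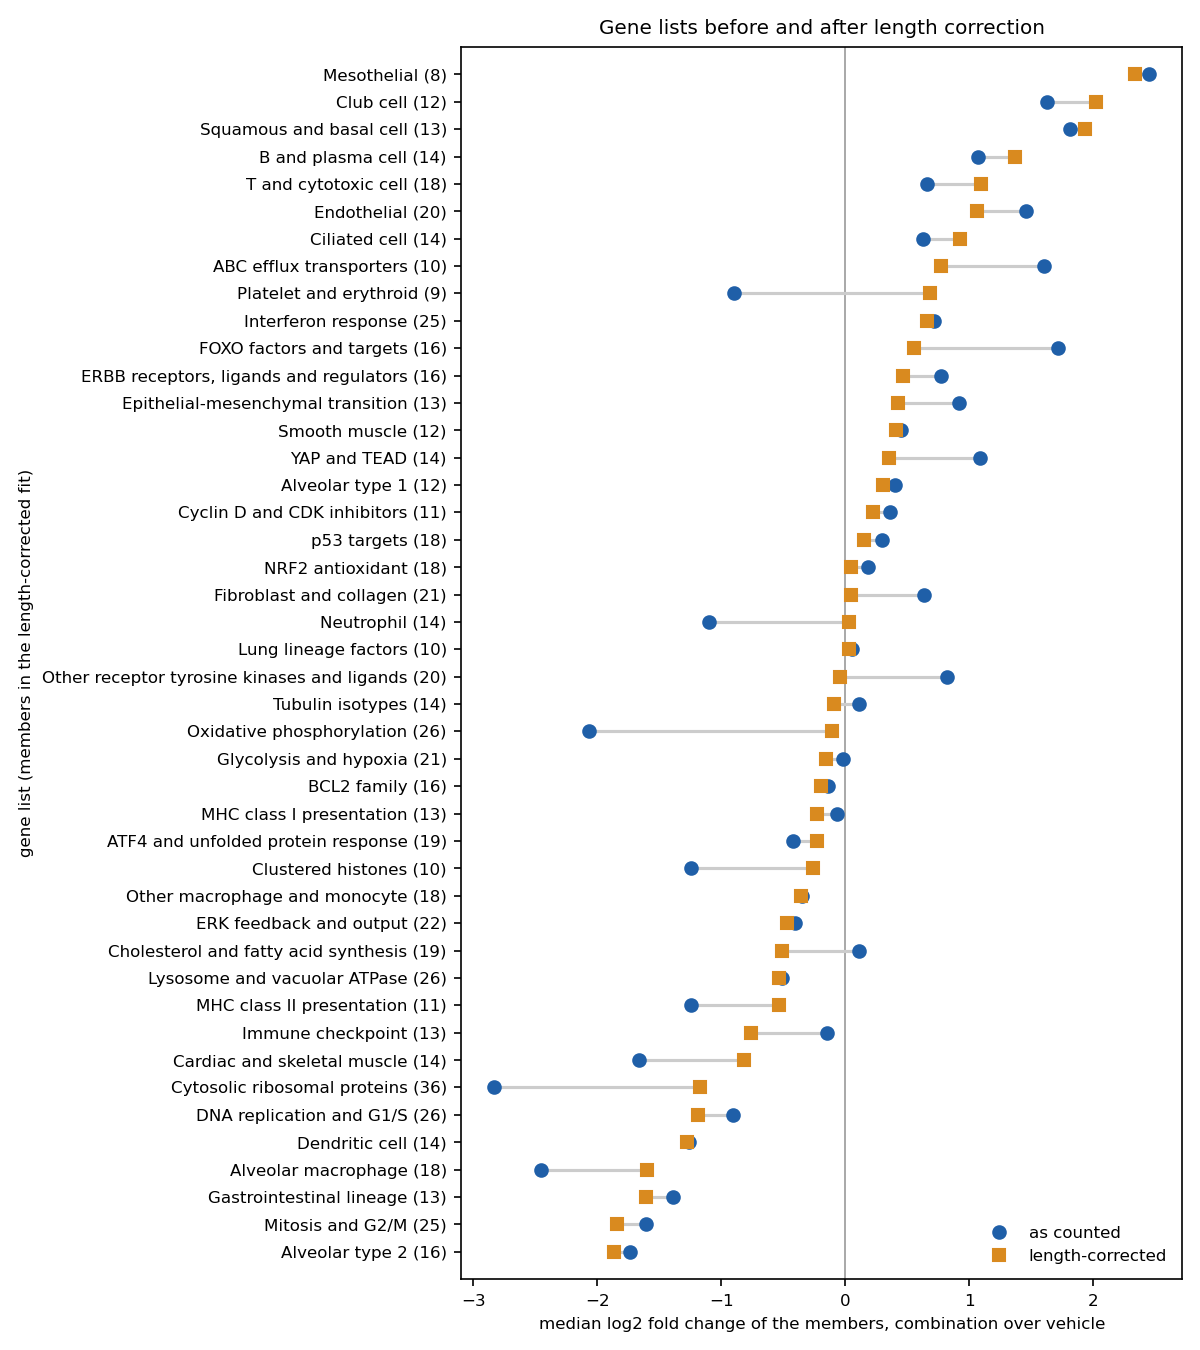
Median log2 fold change of combination over vehicle for 44 gene lists, as counted (circles) and length-corrected (squares), ordered by the second and with the number of members in the length-corrected fit in brackets. The 2 values lie close together for mitosis and G2/M (-1.61 and -1.84) and far apart for oxidative phosphorylation (-2.07 and -0.11).

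Cell type markers separated the groups in several compartments. Of 18 alveolar macrophage markers, 11 were called lower and 0 higher, 8 of them in both fits, and their summed level was 1302, 1319 and 1464 CPM in combination nodules and 11603 and 12158 CPM in vehicle nodules. Chil3, a chitinase-like protein, had 444, 698 and 628 CPM in the combination and 8665 and 7387 CPM in vehicle (log2 fold change -3.77 ± 0.90 SE, edgeR adjusted p = 0.0069). Mrc1, the mannose receptor, had 26.4, 25.8 and 37.9 CPM in the combination and 148 and 218 CPM in vehicle (-2.61 ± 0.63 SE, edgeR adjusted p = 0.0076; 0.062 without vehicle library 2). Marco, another defining marker, overlapped, at 12.5, 9.48 and 8.84 CPM in the combination and 7.74 and 53.5 CPM in vehicle. In unscaled TPM 2 markers were called higher and 2 lower, with a median of -0.39, against 1.18 for all genes. No member was at 0 in all libraries of a group, and the sum was 1474 to 4348 CPM in mobocertinib and 745 to 3566 CPM in T-DM1 nodules, so both vehicle libraries lay above all 9 drug-treated libraries. As counted, 5 markers were called lower without vehicle library 2, and without combination library 2 there were 7; length-corrected, 2 to 4 were called without any library but vehicle library 1. Other macrophage and monocyte markers gave 4 lower and 0 higher of 18 as counted (17.4% and 17.6% of all genes). After correction 1 was lower (14.8% of all), and without vehicle library 2 there was 1 lower as counted.

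Alveolar type 2 markers, genes of the surfactant-making cell, gave 5 lower and 0 higher of 16 as counted and 6 lower length-corrected. In unscaled TPM 3 were called higher and 0 lower, but their median was -0.03, against 1.18 for all genes. Sftpc, surfactant protein C, had 10461, 13321 and 23910 CPM in the combination and 116628 and 185849 CPM in vehicle, a log2 fold change of -3.25 as counted (edgeR adjusted p = 0.028) and -1.62 length-corrected (edgeR adjusted p = 0.26). Cxcl15, a lung epithelial chemokine, had 271, 289 and 693 CPM in the combination and 13227 and 8558 CPM in vehicle (-4.70, edgeR adjusted p = 0.026). Sftpd, surfactant protein D, had 2584, 3045 and 2518 CPM in the combination and 3251 and 4167 CPM in vehicle and passed in neither fit. These calls were fragile: with 1 library left out at a time 1 to 4 members were called lower as counted, the fewest without vehicle library 2, and 0 or 1 length-corrected. Sftpc lost its call without combination library 1 or 2 or vehicle library 2 (edgeR adjusted p 0.080 to 0.12), and Cxcl15 without combination library 1 or 2 or either vehicle library (edgeR adjusted p 0.060 to 0.083). The alveolar type 1 marker Cav1, caveolin 1, which endothelium also makes, was higher at 508, 450 and 372 CPM in the combination against 33.7 and 38.8 CPM in vehicle, while Ager, the other main marker of that cell, overlapped.

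Club cell genes were higher in part. Cyp2f2, a cytochrome P450 of club cells, had 10725, 10978 and 4364 CPM in the combination and 227 and 212 CPM in vehicle (log2 fold change 5.30 ± 0.86 SE, edgeR adjusted p = 0.00078), and was called under every scaled alternative. Cyp4b1 had 604, 723 and 218 CPM in the combination and 32.3 and 23.1 CPM in vehicle (4.22 ± 0.87 SE, edgeR adjusted p = 0.0032). Scgb1a1, the secretoglobin that defines these cells, overlapped, at 9572, 13285 and 1189 CPM in the combination and 4106 and 12384 CPM in vehicle. Of 12 club cell markers, 4 were called higher and 0 lower in each fit, 2 were called without vehicle library 1 or 2 as counted, 1 without vehicle library 2 and 6 without combination library 3 length-corrected, and combination library 3 was the lowest combination library for Cyp2f2, Cyp4b1 and Scgb1a1.

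Endothelial markers were higher, with 13 of 20 called higher and 0 lower as counted and 7 higher in both fits. Cdh5, VE-cadherin, had 97.4, 67.3 and 144 CPM in the combination and 11.2 and 9.95 CPM in vehicle (log2 fold change 3.28 ± 0.60 SE, edgeR adjusted p = 0.0015; 2.63 length-corrected). Erg, an endothelial ETS factor, and Tie1, an angiopoietin co-receptor, were higher by 3.18 and 1.93. Emcn, Cldn5 and Egfl7, which are also endothelial, passed in neither fit. The summed level was 1303, 1217 and 1677 CPM in the combination and 725 and 757 CPM in vehicle, no marker was at 0 in any of the 5 libraries, and 1 member was called in the length-corrected fit without vehicle library 2. Of 14 genes of the YAP and TEAD pathway, which relays cell contact and tension, 8 were called higher and 0 lower as counted (17.6% and 17.4% of all genes). In both fits 7 were higher (8.91% of all). Ptpn14, an inhibitor of YAP, had 116, 96.9 and 110 CPM in the combination and 7.38 and 11.1 CPM in vehicle (3.54 ± 0.39 SE, edgeR adjusted p = 0.00015), and Tead1, the DNA-binding partner of YAP, had 87.2, 51.7 and 75.6 CPM in the combination and 11.9 and 2.15 CPM in vehicle. The classical YAP targets Ccn1 and Ccn2 overlapped between the groups. Without vehicle library 2, 5 members were called higher as counted; length-corrected, 3 were without it or combination library 1, and 4 without combination library 3 or vehicle library 1.

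**Figure D4:**
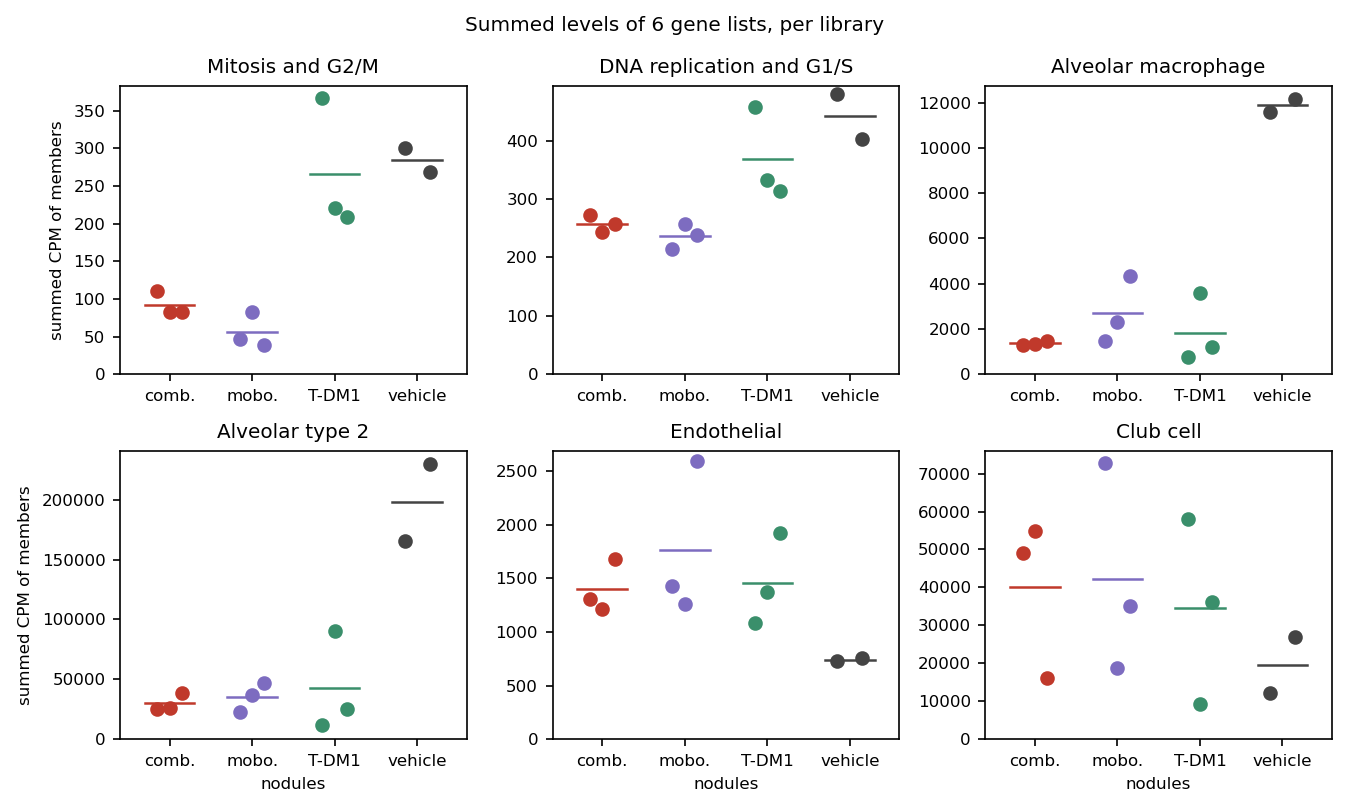
Summed TMM-normalized CPM of the members of 6 gene lists, 1 point per library with the group mean as a bar, in combination, mobocertinib, T-DM1 and vehicle nodules from left to right (n = 3, 3, 3 and 2; axes start at 0). Mitosis and G2/M genes sum to 82.8 to 111 CPM in the combination, 209 to 366 in T-DM1 and 269 to 300.5 in vehicle nodules, whereas alveolar macrophage markers are at 11603 and 12158 CPM in the vehicle libraries and at most 4348 in the drug-treated libraries.

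Immune genes gave smaller sets of calls. Of 25 interferon response genes, 5 (20%) were called higher as counted, against 17.6% of all genes, and 1 lower, and Oasl2, Ddx58, Gbp2, Gbp3 and Ifit1 were higher in both fits. Oasl2 had 46.8, 25.5 and 35.5 CPM in the combination and 6.12 and 7.35 CPM in vehicle (log2 fold change 2.42, edgeR adjusted p = 0.0076). Irf1 and Isg15, also interferon-induced, overlapped between the groups. Gbp2 and Gbp3 lost their calls as counted without either vehicle library (edgeR adjusted p 0.064 to 0.12), Gbp3 also without combination library 3, and Ifit1 without any library but combination library 3 (edgeR adjusted p 0.088 to 0.17). Without vehicle library 2, 2 members were called higher as counted and 0 length-corrected, and without vehicle library 1 there were 3 and 2; without a combination library, 2 or 3 were called length-corrected. MHC class II presentation genes gave 5 lower and 0 higher of 12 as counted (17.4% and 17.6% of all genes). In unscaled TPM they gave 0 and 0, with a median of 0.59 against 1.18 for all genes. H2-DMa and H2-DMb2, which load peptides, were lower in both fits. The MHC count fell to 1 as counted without vehicle library 2, to 3 and 2 without combination libraries 1 and 2, and to 0 length-corrected without any library, and H2-DMa lost its call in the first 3 of these (edgeR adjusted p 0.057 to 0.11). Among T and cytotoxic cell genes, 3 of 20 were called higher (17.6% of all genes), all at low levels: Cd8a had 1.18, 1.77 and 1.51 CPM in the combination and 0.420 and 0 CPM in vehicle and passed in neither fit. With 1 library left out, 1 or 2 of them were called higher.

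The inhibitory receptor gene Tigit, in contrast, had 15, 13.4 and 25.4 CPM in the combination and 0 and 0.223 CPM in vehicle, or 1400 counts against 3. The ratio of normalized counts was 182 (exact 95% interval 62.2 to 884, counting error only), and the call held under every scaled alternative. The summed T and cytotoxic markers did not follow it, at 50.2, 48.2 and 40.9 CPM in the combination and 31.7 and 64.7 CPM in vehicle. Cd274, which encodes PD-L1, was lower, at 10.7, 9.996 and 14 CPM in the combination and 24.0 and 43.0 CPM in vehicle (log2 fold change -1.53, edgeR adjusted p = 0.033; -1.87 length-corrected). It lost its call as counted when combination library 1, 2 or 3 or vehicle library 2 was left out (edgeR adjusted p 0.053 to 0.29).

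The largest falls and rises over all genes were taken among called genes that did not overlap between the groups and averaged a log2 CPM of at least 1. Immune receptor segments, predicted genes and pseudogenes were left out. The 8 lowest log2 fold changes come first. Cxcl3, a neutrophil-attracting chemokine, had 0.325, 0.197 and 0.221 CPM in the combination and 79.2 and 25.6 CPM in vehicle (-7.70 ± 1.08 SE, edgeR adjusted p = 0.00035). Csf2, which encodes GM-CSF, had 0.527, 0.354 and 0 CPM in the combination and 33.1 and 31.3 CPM in vehicle. Ccl17, a chemokine of dendritic cells and macrophages and a member of the dendritic cell list, had 3.0, 3.90 and 4.27 CPM in the combination and 798 and 142 CPM in vehicle, and Ghrl, the ghrelin gene, 0.122 to 0.221 CPM in the combination and 17.3 and 22.4 CPM in vehicle. All 4 were called under every scaled alternative, as were Ceacam10 and Fam181a. The remaining members of the 8, Fbp1 and the noncoding Meg3, differed widely between the vehicle libraries (58.7 and 1.11 CPM for Fbp1, 190 and 31.1 CPM for Meg3), and lost their calls without vehicle library 1 (log2 fold changes -1.91 and -5.48).

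The 8 highest log2 fold changes belonged to genes with 0 counts in both vehicle libraries, so each fold is the smallest that 3 counts in the vehicle group would allow. These bounds are as counted and make no allowance for the length skew. Transcripts ran from 1823 bases for Ces2f to 6010 for Aff3 and 16234 for Onecut2. Onecut2, a transcription factor of the gastrointestinal list, had 7.99, 13.5 and 3.83 CPM in the combination and was at least 83.8-fold higher. Gpc6, a glypican, had 5.32, 3.90 and 4.31 CPM and was at least 45.1-fold higher, and Arc, an immediate early gene, was at least 42.3-fold higher with 3.16, 5.0 and 4.42 CPM. Aff3 was at least 36.4-fold higher, Chst8 at least 31.6-fold and Ces2f at least 29.0-fold, with the Chst8 call lost without vehicle library 2 and the Ces2f call without either vehicle library (edgeR adjusted p 0.056 to 0.073), and the protocadherins Pcdhga10 and Pcdhgb6, whose exons are shared with neighbouring family members in full or in part, are uncertain. In all, 547 of the genes tested had 0 counts in both vehicle libraries and counts in every combination library, against 23 with 0 in all 3 combination libraries and counts in both vehicle libraries. The vehicle libraries also detected fewer genes, as given above. The filter used all 14 libraries, so genes at 0 in vehicle entered the test only through other groups. A count of 0 in 2 libraries is also easier to meet than 0 in 3, so the 547 and 23 are not like counts.

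Among transcription factors of lung lineages, Sox9, a factor of the lung's distal progenitors, had 0.568, 0.866 and 0.110 CPM in the combination and 14.9 and 14.1 CPM in vehicle (log2 fold change -4.81 ± 1.24 SE, edgeR adjusted p = 0.010), and Id2, an inhibitor of basic helix-loop-helix factors, had 52.8, 60.1 and 48.7 CPM in the combination and 241 and 332 CPM in vehicle (-2.41 ± 0.35 SE, edgeR adjusted p = 0.00039). Foxa1, a pioneer factor of airway epithelium, was higher at 175, 89.7 and 117 CPM in the combination against 15.4 and 20.0 CPM in vehicle (2.85 ± 0.57 SE, edgeR adjusted p = 0.0026). Nkx2-1, the factor that defines lung epithelium, was present in all 5 libraries and passed in neither fit, at 194, 156 and 141 CPM in the combination and 115 and 81.8 CPM in vehicle. Sox2, a factor of proximal airway epithelium, was higher at 75.8, 49.9 and 35.4 CPM in the combination against 4.38 and 7.50 CPM in vehicle, and lost its call without vehicle library 1 (edgeR adjusted p = 0.058). Sox2 belongs to the squamous and basal cell list, with a median of 1.81 as counted and 1.93 length-corrected. Of its 13 members, 2 were called higher and 1 lower in both fits (8.91% and 9.11% of all genes). Krt4, a keratin of mucosal epithelium, was the other member called higher, at 38.6, 8.86 and 22.7 CPM in the combination against 1.56 and 3.86 CPM in vehicle (3.12, edgeR adjusted p = 0.034), with the call lost without any library but combination library 2 (edgeR adjusted p 0.056 to 0.16). Ivl, involucrin, was the member called lower, at 2.31, 2.09 and 4.09 CPM in the combination against 53.2 and 33.9 CPM in vehicle (-3.94 ± 0.76 SE, edgeR adjusted p = 0.0022).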

How the data were processed

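Whole-number counts per gene symbol were deposited for 14 libraries (55291 symbols), with TPM values for 47606 genes that the authors adjusted for transcript length and library size, per the file headers. STAR, RSEM and mm10 are named in the submitters' processing notes; versions, annotation and strand setting are not given in these sources, so overlapping and antisense genes may share reads. Both tables' columns were matched to samples by title.

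Counts were tested in edgeR 4.0.16 (R 4.3.3): filterByExpr by group, TMM factors and a robust quasi-likelihood F-test on all 14 libraries with group means only, leaving 9 residual degrees of freedom. CPM are TMM-normalized. Standard errors were taken as the log2 fold change over the root of F. For the length-corrected fit, smooth curves (mgcv 1.9.3, basis 8) of each library's log2 CPM deviation on transcript length and GC content, from genes with a mean log2 CPM of at least 1, became offsets. Lengths are of the longest GENCODE M21 transcript on mm10; 53180 symbols matched 1 gene, and 404 more through RefSeq synonyms. Shares of counts carry Wilson intervals (95%) at most 0.0380 percentage points wide, and intervals and bounds cover counting error only. No 2 libraries of a group were alike within sampling noise (chi-square over its degrees of freedom, 87.9 to 175), and each library counts as 1 replicate.

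The comparison, the 46 gene lists (759 symbols, 734 tested, 23 matched through a newer symbol) and the tests were chosen with earlier results of these data known. Lists are described by counts and medians, with no list test. Named genes included the 8 highest and 8 lowest as-counted fold changes among called genes that did not overlap and averaged a log2 CPM of 1 or more. The same was taken among those called in the same direction in both fits. Immune receptor segments, predicted genes and pseudogenes were left out. Up to 4 called members of each list by p (or its first 2 if none) and a fixed panel were named as well. Other members were named after their values were seen. Replicate numbers follow accession order and name libraries only. Alternatives were other normalizations, filters, limma-voom (3.58.1), DESeq2 1.42.0, glmTreat against 1.5-fold, limma-trend on log2(TPM + 1), keeping genes that reach a TPM of 1 in 2 libraries, the same TPM without TMM scaling, the 5 libraries alone, and each library left out; leaving libraries out of the length-corrected fit was added after seeing the data. The procedure was tested on simulated data.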

Additional observations from a re-analysis of the deposited data

How the results depend on the processing

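No paired analysis was possible because the replicate numbers follow accession order and pair no libraries. For combination against vehicle, 6277 genes were called. The length and GC correction called 3935 (1713 higher), glmTreat called 2109 higher, and TPM left unscaled called 9483 with a pseudocount of 1 (8950 higher, 533 lower) and 10182 with 0.1 (9682 and 500), where the median log2 fold change over all genes was 1.18 and 1.69 in place of 0.08. With each library left out in turn, with and without the correction, 1856 to 6136 genes were called, 772 to 3369 higher and 1084 to 2767 lower. As counted the fewest, 3630, came without vehicle library 2. Against mobocertinib DESeq2 called 1 gene, and against T-DM1 it called 75 and TPM scaled by TMM called 4, where edgeR called 0. Of 161 called named genes, 49 kept call and direction in all 22 alternatives other than unscaled TPM. Signs turned for 5 of the called named genes under the correction: Cdk6 (-0.36, and -0.019 in scaled TPM), Bax (0.031), Pdk1 (-0.15), Bst2 (0.40) and S100a8 (0.070). With 1 library left out, with and without the correction, log2 fold changes spanned 0 for Foxo1 (-0.036 to 2.08), Cdk6 (-0.64 to 1.24), Bax (-1.51 to 0.083), Pdk1 (-0.35 to 0.79), Psmb10 (-2.06 to 0.11), Bst2 (-1.69 to 0.74), S100a8 (-2.96 to 0.34), Col4a2 (-0.17 to 1.73), Hbb-bt (-2.24 to 0.28), Scgb1a1 (-0.62 to 3.22) and Spred2 (-0.019 to 1.29). The cause of these shifts was not tested. With 0 counts in both vehicle libraries, 3 counts bound the fold.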
